A study of Mus musculus with 20 samples.

Results

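The genes described here are 45 genes of autophagy and of the lysosome, measured by RNA sequencing in mouse sensory-motor cortex. They are the genes whose symbol in the deposited table of raw counts matches a list of the TFEB family of transcription factors, lysosomal enzymes, lysosomal membrane and lipid-handling proteins, subunits of the lysosomal proton pump, proteins of the Atg8 family with the receptor Sqstm1, and proteins that start or build the autophagosome. All 45 were found among the 48795 genes of the table, and all 45 passed the filter on low counts that left 17313 genes to test.

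Autophagy wraps part of the cytoplasm in a double membrane, the autophagosome, which fuses with the lysosome, where enzymes kept active by an acidifying proton pump digest its contents. The mTOR kinase, held at the lysosomal surface when nutrients are plentiful, restrains autophagy by phosphorylating Ulk1, which starts it, and by keeping the transcription factor Tfeb and its relatives out of the nucleus. Rapamycin, which inhibits mTOR, is widely used to induce autophagy. RNA levels measure transcripts only, and show neither phosphorylation nor the flow of material through the pathway.

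The study compared offspring of dams with a maternal inflammatory response (MIR) with control offspring, and rapamycin with vehicle in each. MIR offspring came from dams injected intraperitoneally with lipopolysaccharide, a component of the bacterial cell wall, at 0.008 mg/kg on day 9 of gestation, and the dams of control offspring received sterile saline. Each animal received rapamycin or its vehicle, and tissue was taken 2 hours later, which makes 4 groups of 5 libraries each: control vehicle, control rapamycin, MIR vehicle and MIR rapamycin. The study's methods name CD-1 mice and microdissected cortex. They state that drugs were given to adults, apart from juveniles in a social test. Groups are said to draw equal numbers of each sex from several litters, and the list of litters marks those used for sequencing as young. The labels give the tissue as brain and state neither litter nor sex nor the age of each animal. The p-values therefore measure the spread between mice treated as independent, although the treatment of dams acts on whole litters.

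Sequencing gave 17.8 to 24.5 M counts per library (M for mega), of which the 45 genes took 0.588 to 0.699%. In 3 libraries, all of them control vehicle, markers of brain regions outside the cortex were far higher than in the others. Control vehicle 1 held 4553 counts per M of striatal markers in sum against 195 to 458 in the other libraries, and 10513 counts per M of oligodendrocyte markers. The striatal sum of 458 was that of a control rapamycin library, in a group with a mean of 286. Control vehicle 2 stood out for cerebellar markers, with a sum of 2539, and control vehicle 3 for choroid plexus markers, with a sum of 1273. Markers of cortical excitatory neurons summed to 1702 to 5649 in control vehicle, 6550 to 8328 in control rapamycin, 5349 to 6873 in MIR vehicle and 5606 to 6251 in MIR rapamycin, so the control vehicle libraries reached the lowest sums. Counts of calls, the genes called and most of the other genes named in a comparison with control vehicle are therefore given also without control vehicle 1, 2 and 3. In tissue RNA of this kind, fewer cells of a type and less RNA per cell cannot be told apart.

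Proteins of the TFEB family bind the hexamer CACGTG, best within a longer run known as the CLEAR element of lysosomal genes, so the promoters of the genes were searched for it. RefSeq promoter windows (GRCm38.p6, 250 bases before to 50 after the gene's start) were at hand for 40 of the 45 genes, and CACGTG, which reads the same on both strands, stood in 17 of them, 42.5%, against 8.09% of 27025 genes. The longer GTCACGTG, searched on both strands and containing the hexamer, stood in 11 of 40, 27.5%, against 2.55% of all genes. The overlapping run TCACGTGA stood in 8 of 40, 20.0%, against 1.12%. The full CLEAR palindrome, which contains all of these, stood in 1 of 40, that of Cln3, which is 2.50% against 0.370%. The next lines show the sites of 7 genes, chosen as examples from each role that holds the longer run, 5′ to 3′ along the gene's own strand with the hexamer and 2 bases on either side in capitals.
Cln3: gtactGTCACGTGACcccca
Ctsd: cgcgtCTCACGTGACccgtt
Ctsa: aaactGTCACGTGATgcaga
Glb1: tctgaGTCACGTGGCctaca
Mcoln1: ccccgCTCACGTGACcgcgg
Atp6v0d1: ctgcgGTCACGTGAGacgcg
Atg7: tggtgGTCACGTGTGcagta

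On GRCm38.p6 these windows lie at chr7:126583345-126583364 on the minus strand for Cln3, which encodes a lysosomal membrane protein lost in Batten disease, at chr7:142387913-142387932 on the minus strand for the protease Ctsd and at chr2:164833754-164833773 on the plus strand for the protease Ctsa. Those of Glb1, the lysosomal beta-galactosidase, at chr9:114401023-114401042, of Mcoln1, the calcium channel of the lysosomal membrane, at chr8:3500467-3500486, and of Atg7, the enzyme that activates Atg8 proteins, at chr6:114670957-114670976, are all on the plus strand. The window of Atp6v0d1, a subunit of the membrane part of the proton pump, is at chr8:105566055-105566074 on the minus strand, where the hexamer begins 3 bases before the annotated start. Among the genes that passed a test below, Atp6v0d1 alone holds CACGTG in its window, Ulk2 and Map1lc3b have a window without it, and Becn1 and Map1lc3a were not matched to a window. A match of letters is a description and says nothing of binding in these mice.

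Levels differed widely among the 45 genes. In counts per M (CPM, scaled by TMM) per kilobase of exon, the mean over all 20 libraries was highest for Psap, the precursor of the saposins that help digest sphingolipids, at 487, followed by the Atg8 protein Gabarapl1 at 282 and the autophagy receptor Sqstm1 at 112. Lamp1, a main glycoprotein of the lysosomal membrane, stood at 101 on the same scale and the protease Ctsd at 78.4. The lowest levels per kilobase were those of Mitf at 1.59, Cln3 at 1.56 and Tfeb at 1.18. On this scale Tfeb, the factor for which the family is named, was therefore the lowest of the 45. In mean CPM not divided by exon length, Naglu at 6.24 lay below Tfeb at 6.68. The coefficient of variation of CPM over all 20 libraries had a median of 11.04% and ran from 5.41% for Atp6ap1, an accessory subunit of the pump, to 24.5% for Tfeb. In 36 of the 45 genes the highest library held less than 2 times the CPM of the lowest.

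**Figure D1:**
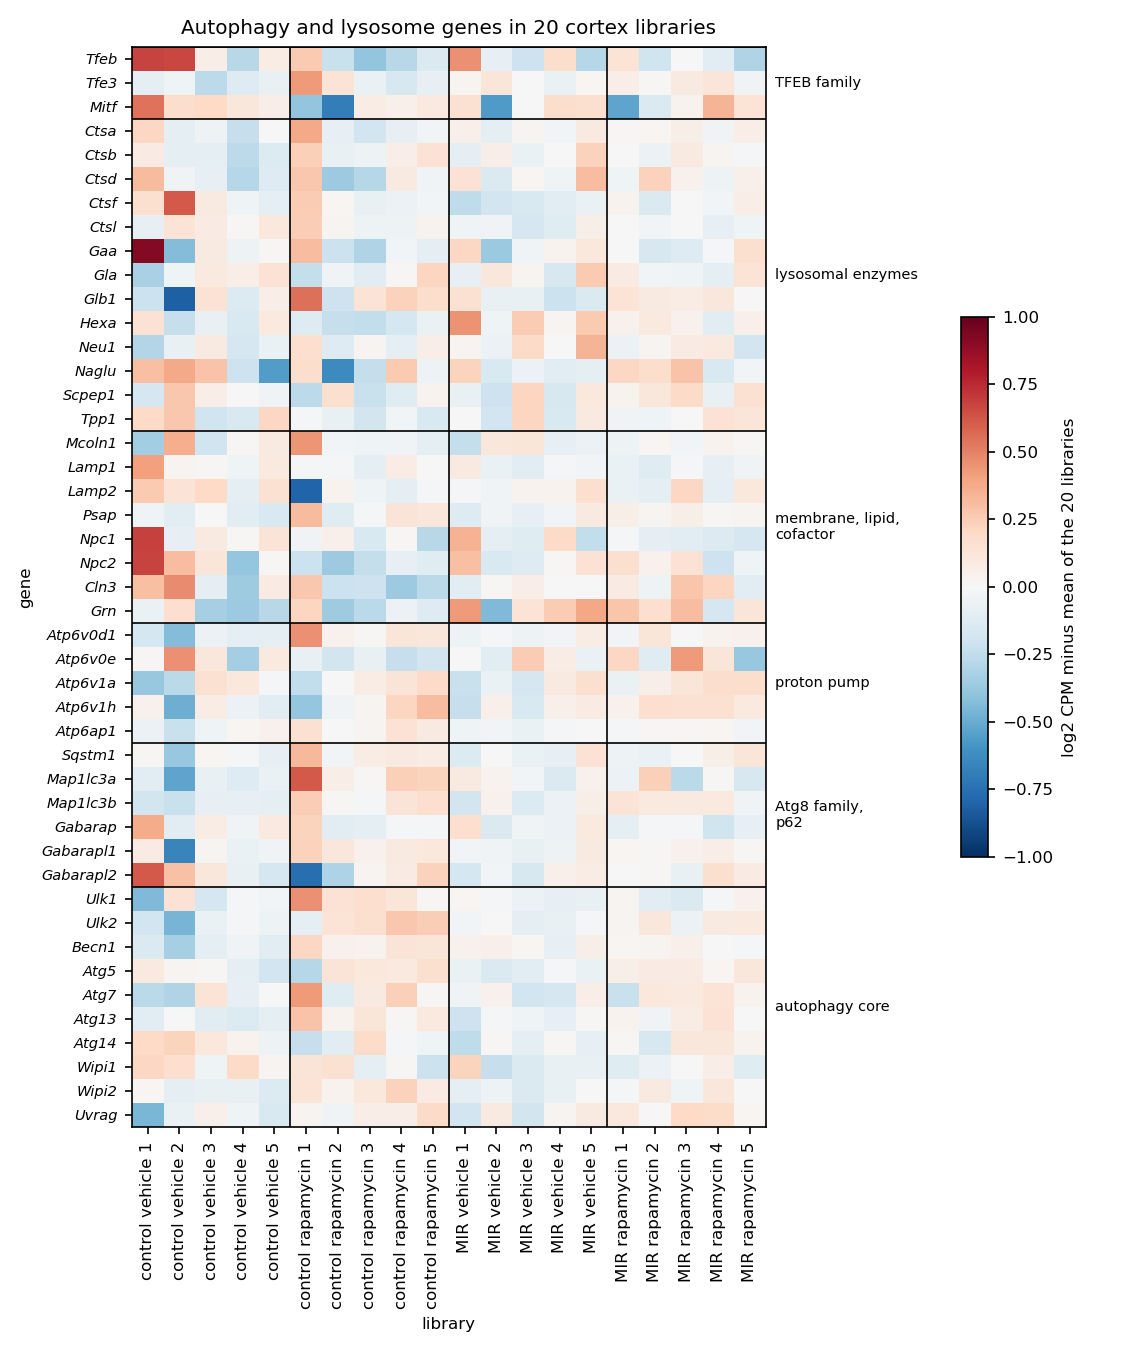
Level of the 45 genes (rows, ordered by role) in the 20 libraries (columns, by group), as log2 CPM minus the gene's mean over all libraries, with colours from -1 to 1 on the log2 scale. Control rapamycin 1, control vehicle 2 and control vehicle 1 hold the most extreme values, as the highest or lowest library of 21, 19 and 16 genes of 45.

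The plot of all genes by library shows few blocks of colour that follow a group. Extreme values lay in a few libraries instead. Control rapamycin 1 was the highest library for 17 genes and the lowest for 4, control vehicle 2 the highest for 7 and the lowest for 12, and control vehicle 1 the highest for 10 and the lowest for 6.

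Rapamycin was first compared with vehicle in control offspring, which asks whether the drug moved transcripts of the pathway within hours. Transcripts of 5 of the 45 genes rose and none fell at an adjusted p under 0.05, all by modest amounts: Becn1, Atp6v0d1, Map1lc3a, Ulk2 and Map1lc3b rose by 18.2 to 33.4%. No lysosomal enzyme, no lysosomal membrane gene and no member of the TFEB family passed. None of the 45 met the criterion of the study's methods, called the study's criterion here, which adds an absolute log2 fold change over 0.5, in edgeR's quasi-likelihood test, in its likelihood ratio test, in DESeq2 or in limma voom. Of all 17313 genes, 5.23% met that criterion in this comparison. At an adjusted p under 0.05 alone, 7.80% of all genes were called, 3.34% as higher and 4.46% as lower, beside 5 of 45 higher and 0 of 45 lower here. Without adjustment, p was under 0.05 for 15 of the 45 genes with a higher and 3 with a lower level, against 11.8% and 15.5% of all genes. The median log2 fold change of the 45 genes was 0.06 and that of all genes -0.03. Adjusted p-values here and below come from the quasi-likelihood test of edgeR, adjusted after Benjamini and Hochberg over all 17313 genes.

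None of these calls held when the control vehicle libraries with markers of other brain regions were left out, a fit that keeps 2 control vehicle libraries. Without control vehicle 1, 2 and 3, none of the 45 genes passed (edgeR), and the log2 fold changes of the 5 called genes stood at 0.17 for Becn1, 0.24 for Atp6v0d1, 0.34 for Map1lc3a, 0.18 for Ulk2 and 0.19 for Map1lc3b, with edgeR adjusted p from 0.277 to 0.392. The direction was higher in all 5. In this fit the unadjusted p was under 0.05 for 10 of the 45 genes with a higher and 0 with a lower level, against 6.63% and 7.25% of the 17993 genes tested in it. Of all genes, 36 passed at an adjusted p under 0.05 alone, 13 higher and 23 lower, in place of 1351. When only the control vehicle and control rapamycin groups were fitted, 13 of all genes met the study's criterion in place of 906, and none of the 45 passed, at log2 fold changes of 0.24 to 0.41 in these 5 genes and edgeR adjusted p of 0.194 to 0.232.

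Initiation and core genes made up 7 of the 15 genes with a higher level at an unadjusted p under 0.05. Of the 10 genes of this role, 8 had a positive log2 fold change and 2 rose at the adjusted threshold, with a median of 0.20. Becn1 encodes Beclin 1, the scaffold of the lipid kinase complex that marks the site where an autophagosome forms. In control vehicle libraries 1 to 5 it stood at 91.9, 80.6, 95.3, 99.0 and 94.6 CPM, and in control rapamycin libraries 1 to 5 at 117, 104, 104, 111 and 111 CPM. Every control rapamycin library lay above every control vehicle library, the lowest values being those of control vehicle 2 and 1. The means were 92.3 ± 7.01 and 109.5 ± 5.48 CPM (SD, n = 5 each), a log2 fold change of 0.25 ± 0.06 (SE, 95% interval 0.12 to 0.38, edgeR adjusted p = 0.0247). This gene passed the threshold whichever single library was left out, at log2 fold changes of 0.20 to 0.27. It did not pass when no filter on low counts was applied. On mm10 it lies at chr11:101285952-101302286 on the minus strand and overlaps Cntd1 on the opposite strand.

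Ulk1 and Ulk2 encode the paired kinases that start autophagy and that mTOR restrains. Ulk2 stood at 119, 98.0, 129, 135 and 131 CPM in control vehicle 1 to 5 and at 128, 149, 151, 163 and 161 CPM in control rapamycin 1 to 5. The groups overlapped, since control rapamycin 1 lay below 3 of the control vehicle libraries. The log2 fold change of Ulk2 was 0.30 ± 0.08 (SE, edgeR adjusted p = 0.0364), and it passed in 14 of the 20 fits that each left out a library. It stood at 0.23 to 0.30 without control vehicle 1 or 2, or control rapamycin 2, 3, 4 or 5 (edgeR adjusted p from 0.0506 to 0.0781). Its gene lies at chr11:61775649-61855073 on the minus strand (mm10). Ulk1 stood at 77.5, 116, 93.3, 104 and 103 CPM with vehicle and 144, 116, 118, 114 and 106 CPM with rapamycin, in the order of the library numbers. Control rapamycin 1 was the highest and control vehicle 1 the lowest of all 20 libraries. Its log2 fold change of 0.28 ± 0.09 (SE) did not pass (edgeR adjusted p = 0.0699).

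Further genes of this role came close to the threshold. Wipi2 encodes a reader of the lipid mark on forming autophagosomes and Atg13 a partner of the Ulk kinases. Wipi2 stood at 125, 115, 117, 117 and 112 CPM with vehicle and 135, 126, 133, 144 and 130.4 CPM with rapamycin. Its groups did not overlap, and the log2 fold change was 0.19 ± 0.06 (SE, edgeR adjusted p = 0.0503). Atg13 stood at 92.8, 101, 92.9, 91.4 and 94.6 CPM with vehicle and 122, 103, 109, 101 and 108 CPM in control rapamycin. Here too the groups did not overlap, control vehicle 2 lying just below control rapamycin 4, with a log2 fold change of 0.20 ± 0.06 (SE, edgeR adjusted p = 0.0564). In 6 of the 45 genes, Becn1, Atp6v0d1, Map1lc3a, Map1lc3b, Wipi2 and Atg13, all 5 control rapamycin libraries lay above all 5 control vehicle libraries, while this held for 3.73% of all genes tested and the reverse for none of the 45 and 2.80% of all genes. Of the remaining core genes, Atg7 (log2 fold change 0.24 ± 0.11, SE) and Uvrag, a partner of Beclin 1 (0.19 ± 0.09), had an unadjusted p under 0.05 and did not pass. Atg5, Atg14 and Wipi1 stood at 0.08 ± 0.08, -0.15 ± 0.09 and -0.11 ± 0.09 on the same scale. Without control vehicle 1, 2 and 3, the log2 fold change was 0.22 for both Wipi2 and Atg13 and 0.20 for Ulk1, with none past the threshold (edgeR adjusted p of 0.216, 0.262 and 0.360).

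The Atg8 family is coupled to the membrane of the growing autophagosome and recruits cargo through receptors such as Sqstm1, also called p62. Of these 6 genes, 4 had an unadjusted p under 0.05, all higher, and 2 rose at the adjusted threshold, with a median log2 fold change of 0.21. Map1lc3a stood at 93.3, 69.8, 95.3, 91.9 and 95.7 CPM in control vehicle 1 to 5 and at 153, 105, 101, 118 and 117 CPM in control rapamycin 1 to 5. The groups did not overlap, and control vehicle 2 was the lowest and control rapamycin 1 the highest of all 20 libraries. The log2 fold change was 0.42 ± 0.11 (SE, 95% interval 0.18 to 0.66, edgeR adjusted p = 0.0359), the highest of the 45 genes. It passed in 16 of the 20 fits with a library left out, and stood at 0.31 to 0.42 without control vehicle 2 or control rapamycin 1, 4 or 5 (edgeR adjusted p from 0.0587 to 0.0835). Map1lc3a lies at chr2:155276297-155278073 on the plus strand (mm10).

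Map1lc3b, whose protein LC3B is the standard marker of autophagosomes, stood at 93.3, 90.7, 100.02, 99.7 and 99.6 CPM with vehicle and 125, 107, 105, 116 and 119 CPM in control rapamycin. The lowest control rapamycin library, number 3, lay above the highest control vehicle library, also number 3. The log2 fold change was 0.24 ± 0.07 (SE, edgeR adjusted p = 0.0380), and the gene passed in 15 of the 20 fits with a library left out. Without control vehicle 1 or 2, or control rapamycin 1, 4 or 5, it stood at 0.21 to 0.24 (edgeR adjusted p from 0.0582 to 0.0799). It lies at chr8:121590361-121598760 on the plus strand (mm10), overlapping the model Gm20388 on the same strand and Zcchc14 on the other.

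Gabarapl1, the most abundant gene of the family, stood at 597, 358, 577, 539.5 and 551 CPM with vehicle and 662, 612, 582, 600.3 and 609 CPM in control rapamycin. Control vehicle 2 lay far below every other library, and the log2 fold change of 0.23 ± 0.10 (SE) did not pass (edgeR adjusted p = 0.151). Gabarap and Gabarapl2, of the same branch of the family, had negative log2 fold changes. Gabarap stood at 107, 76.3, 86.7, 80.6 and 88.0 CPM with vehicle and 95.8, 76.1, 77.1, 81.4 and 81.3 CPM with rapamycin, a log2 fold change of -0.09 ± 0.09 (SE). Gabarapl2 stood at 64.2, 51.6, 45.5, 39.9 and 37.3 CPM with vehicle and 24.8, 33.8, 42.7, 44.4 and 49.1 CPM with rapamycin, a log2 fold change of -0.29 ± 0.15 (SE, edgeR adjusted p = 0.227). In Gabarapl2 the groups overlapped, control vehicle 1 being the highest and control rapamycin 1 the lowest of the 20 libraries. Sqstm1 averaged 354 ± 38.4 CPM with vehicle and 405 ± 38.4 CPM with rapamycin (SD, n = 5 each), a log2 fold change of 0.19 ± 0.09 (SE, edgeR adjusted p = 0.152).

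**Figure D2:**
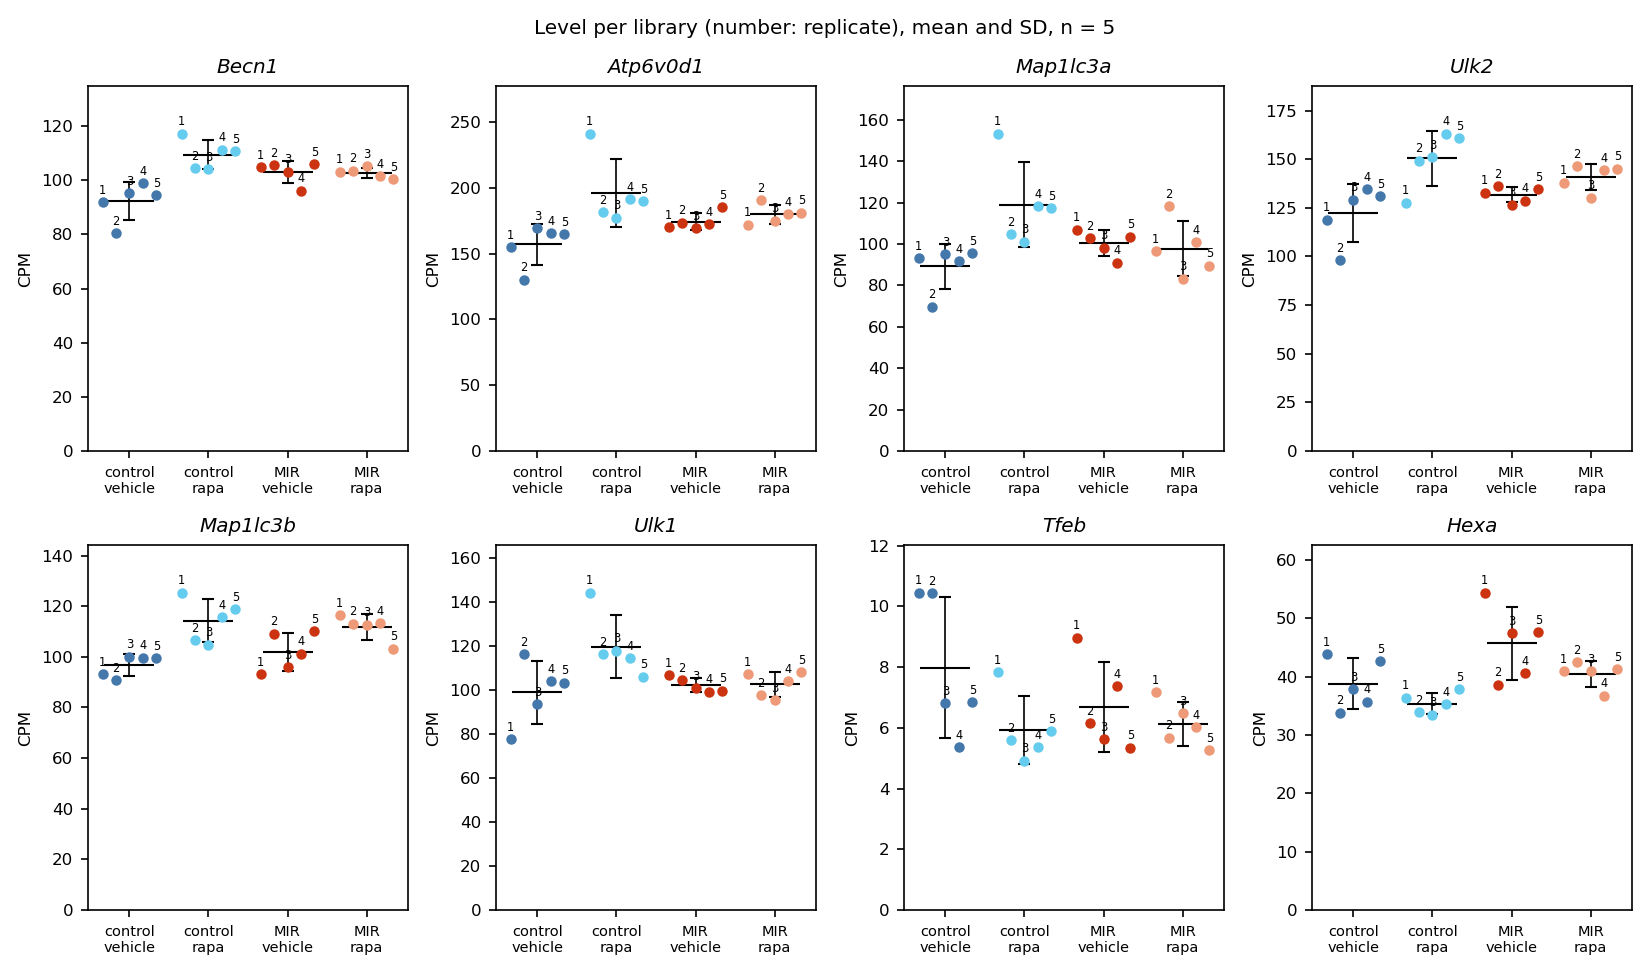
Level in CPM, from 0, of 8 of the genes in each library, with library numbers beside the points and the group mean and SD (n = 5) as a bar. In Becn1, Atp6v0d1, Map1lc3a and Map1lc3b the control rapamycin points all lie above the control vehicle points, while the MIR vehicle and MIR rapamycin points overlap.

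The proton pump of the lysosome has a membrane part and a part facing the cytosol, and 4 of its 5 genes on the list had a positive log2 fold change. Atp6v0d1 stood at 155, 130.3, 169, 165 and 165 CPM in control vehicle 1 to 5 and 241, 181, 177, 191 and 189.8 CPM in control rapamycin 1 to 5. Control rapamycin 1 stood far above the other libraries and control vehicle 2 was the lowest, while the other values of both groups lay between 155 and 191 CPM without overlap. The log2 fold change was 0.32 ± 0.08 (SE, 95% interval 0.15 to 0.50, edgeR adjusted p = 0.0294), and it passed in 18 of the 20 fits with a library left out, but not without control vehicle 2 (0.26, edgeR adjusted p = 0.0638) or control rapamycin 1 (0.24, edgeR adjusted p = 0.0513). Atp6v0d1 lies at chr8:105524465-105566047 on the minus strand (mm10). Atp6ap1 stood at 247 ± 17.4 CPM with vehicle and 270.5 ± 13.2 CPM with rapamycin (SD, n = 5 each), a log2 fold change of 0.13 ± 0.06 (SE, unadjusted p = 0.0418 in edgeR) that did not pass after adjustment. Atp6v1a, Atp6v1h and Atp6v0e differed by 0.10 ± 0.11, 0.14 ± 0.12 and -0.24 ± 0.14 on the log2 scale (SE), none past the threshold.

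The 3 genes of the TFEB family showed no call. Tfeb, the best known activator of lysosomal genes, stood at 10.5, 10.4, 6.82, 5.35 and 6.85 CPM in control vehicle 1 to 5 and 7.83, 5.58, 4.92, 5.36 and 5.90 CPM in control rapamycin 1 to 5. Its high values were those of control vehicle 1 and 2, and control vehicle 3 to 5 lay within the range of control rapamycin. The log2 fold change of -0.43 ± 0.19 (SE, 95% interval -0.83 to -0.04) did not pass (edgeR adjusted p = 0.143), and the median of the family was -0.37 with all libraries and -0.05 without control vehicle 1, 2 and 3. Tfe3, its close relative, stood at 35.8, 37.2, 32.1, 35.2 and 36.4 CPM with vehicle and 51.6, 42.3, 36.7, 34.3 and 36.4 CPM with rapamycin, where control rapamycin 1 was the highest of the 20 libraries. Tfe3 differed by 0.19 ± 0.09 on the log2 scale (SE, edgeR adjusted p = 0.188). Mitf, known for its part in pigment cells, stood at 14.1, 10.9, 11.1, 10.4 and 10.1 CPM with vehicle and 7.31, 5.96, 10.2, 10.02 and 10.4 CPM in control rapamycin. Control vehicle 1 was again the highest library, and the log2 fold change of Mitf was -0.37 ± 0.18 (SE, edgeR adjusted p = 0.193). When control vehicle 1, 2 and 3 were left out, Tfeb stood at -0.05, Tfe3 at 0.16 and Mitf at -0.23 on this scale, none past the threshold (edgeR).

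Among the 13 lysosomal enzymes, 4 had a positive and 9 a negative log2 fold change, with a median of -0.02. Glb1 had the only unadjusted p under 0.05, at 18.9 ± 4.43 CPM with vehicle and 24.1 ± 4.51 CPM with rapamycin (SD, n = 5 each), a log2 fold change of 0.35 ± 0.14 (SE, edgeR adjusted p = 0.126). Values of the other 12 enzymes ran from -0.23 ± 0.18 for Gaa, which digests glycogen in the lysosome, to 0.17 ± 0.08 for the protease Ctsb (SE). Lysosomal membrane, lipid and cofactor genes had a median of -0.18, with 3 of 8 positive. In these, Npc2, which hands cholesterol to the membrane protein Npc1, had the smallest p, at 45.7 ± 12.4 CPM with vehicle and 35.0 ± 2.64 CPM with rapamycin (SD, n = 5 each). Its log2 fold change of -0.39 ± 0.14 (SE) did not pass (edgeR adjusted p = 0.0899), but without control vehicle 4 it met the study's criterion as lower, at -0.51 (edgeR adjusted p = 0.0200). Lamp2 (-0.29 ± 0.12, SE) and Psap (0.17 ± 0.08) had an unadjusted p under 0.05 in opposite directions. Without control vehicle 1, 2 and 3, Glb1 stood at 0.22, Npc2 at -0.03, Lamp2 at -0.19 and Psap at 0.22, none past the threshold (edgeR), and the medians by role were 0.08 for enzymes, -0.03 for membrane genes, 0.04 for the pump, 0.16 for the Atg8 family with Sqstm1 and 0.18 for core genes. In the same comparison with all libraries, the 17 genes with CACGTG in the promoter window had a median of -0.02, with 7 positive, and the 23 with a window that lacks it a median of 0.11, with 13 positive.

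Markers of several cell types differed in this comparison too. The 10 oligodendrocyte markers all had a lower level in control rapamycin, with a median log2 fold change of -0.77 and 4 called at an adjusted p under 0.05 (edgeR), and their summed level ran from 2655 to 10513 CPM in control vehicle and 3064 to 4357 CPM in control rapamycin. Of the 9 markers of cortical excitatory neurons, 8 were positive, with a median of 0.59 and 1 called as higher. Of the 8 astrocyte markers, 1 was called as higher and 3 as lower, with a median of -0.31, and their summed level ran from 4761 to 7176 CPM in control vehicle and 4907 to 6427 CPM in control rapamycin. Of the 10 endothelial markers, 1 was called as lower, with a median of -0.07, and of the 15 microglia markers none was called, with a median of -0.18. None of these markers was at 0 over all libraries, and the part of cell makeup in the differences above was not tested.

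**Figure D3:**
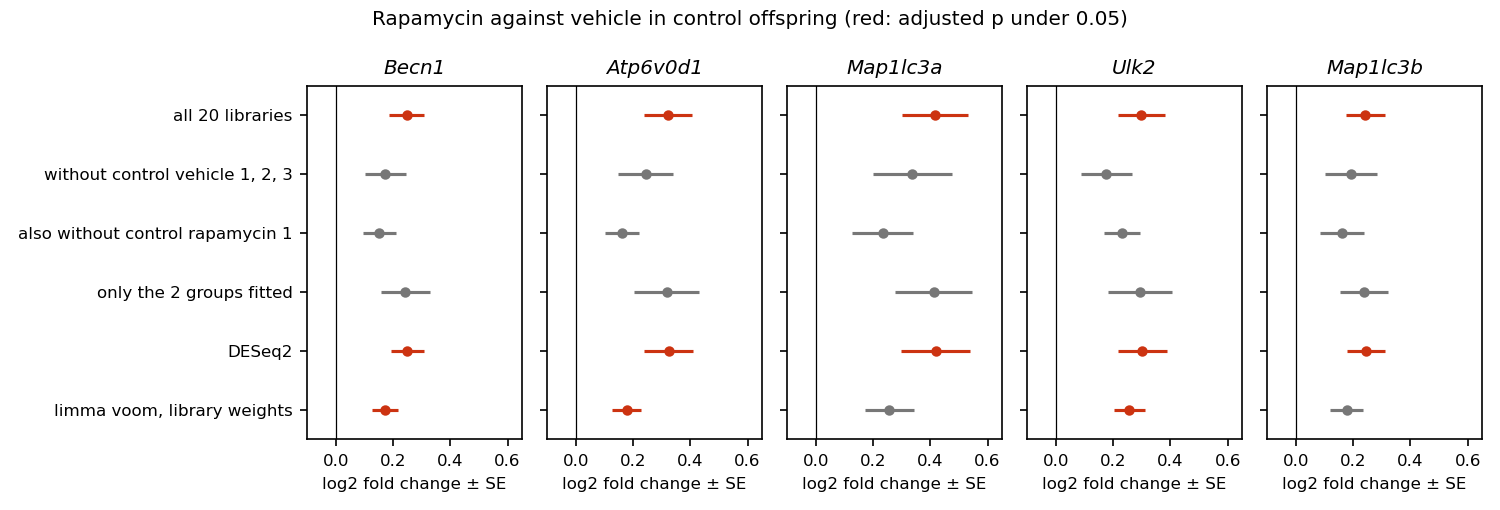
Log2 fold change (± SE) of the 5 called genes for rapamycin against vehicle in control offspring under 6 settings of libraries and tools, with red points where the adjusted p is under 0.05. Points stay above 0 in every setting shown, and none of the 5 is red without control vehicle 1, 2 and 3, without these and control rapamycin 1, or when only both groups compared were fitted. In limma voom, Map1lc3a and Map1lc3b are not red either.

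In MIR offspring, rapamycin was compared with vehicle in the same way, and none of the 45 genes passed in edgeR. None of the 45 had an unadjusted p under 0.05, against 2.21% of all genes higher and 2.78% lower, and every adjusted p among the 45 was 1. Of all genes, 0.0173%, which is 3 genes, were called. This fit takes its spread from all 20 libraries, those of control offspring included. When only the MIR groups were fitted, 4 of the 45 were higher and 0 lower at an unadjusted p under 0.05 (edgeR). Without control vehicle 1, 2 and 3 and control rapamycin 1, 7 were higher and 0 lower. None of the 45 passed after adjustment in either fit, in which 31 and 46 of all genes met the study's criterion. Unadjusted p was under 0.05 for 2 of the 45 genes as higher in DESeq2, for 0 in edgeR's likelihood ratio test and for 5 as higher in limma voom. None of these tools called any of the 45, while by the study's criterion they called 36, 28 and 59 of all genes. The shares of all genes above are those of the quasi-likelihood test on all 20 libraries. None is given here at an unadjusted p for the other fits and tools, so their counts of the 45 have no like background. The 95% interval of the log2 fold change lay within ±0.5 for 43 of the 45 genes. Positive values were found in 29 of the 45 and in 9 of the 10 core genes, whose median was 0.10, while the median of all 45 was 0.03 and that of all genes 0.00.

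The 5 genes called in control offspring all overlapped between the MIR groups. Becn1 stood at 105, 106, 103, 96.2 and 106 CPM in MIR vehicle 1 to 5 and 103, 104, 105, 102 and 100.3 CPM in MIR rapamycin 1 to 5, and the log2 fold change was -0.01 ± 0.06 (SE). Atp6v0d1 stood at 170.0, 173, 169, 173 and 185 CPM with vehicle and 172, 191, 175, 180.1 and 181 CPM with rapamycin, a log2 fold change of 0.05 ± 0.08 (SE). Map1lc3a stood at 107, 103, 98.3, 91.0 and 104 CPM with vehicle and 96.6, 118, 83.3, 101 and 89.6 CPM with rapamycin, a log2 fold change of -0.04 ± 0.11 (SE). MIR vehicle 5 and MIR rapamycin 2 were the highest libraries of their groups for Atp6v0d1, and Map1lc3a varied more under rapamycin, where number 3 was lowest and number 2 highest. Ulk2 stood at 133, 136, 127, 129 and 135 CPM with vehicle and 138, 146, 130.2, 144 and 145 CPM with rapamycin, a log2 fold change of 0.10 ± 0.08 (SE). Map1lc3b stood at 93.1, 109, 95.9, 101 and 110.0 CPM with vehicle and 116, 113, 113, 113 and 103 CPM with rapamycin, a log2 fold change of 0.13 ± 0.07 (SE, unadjusted p = 0.0645 in edgeR). In Map1lc3b, 4 of the 5 MIR rapamycin libraries lay above every MIR vehicle library and number 5 among them.

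Atg5, which forms part of the complex that couples Atg8 proteins to lipid, was the 1 gene of the 45 whose groups did not overlap in MIR offspring, as all rapamycin libraries lay above all vehicle libraries in 1.35% of all genes tested. It stood at 18.3, 17.4, 17.8, 18.996 and 18.3 CPM with vehicle and 20.0, 20.4, 20.3, 19.4 and 20.8 CPM with rapamycin, and the log2 fold change of 0.15 ± 0.08 (SE) did not pass (unadjusted p = 0.0823 in edgeR). In control offspring Atg5 stood at 20.6, 19.6, 19.4, 18.0 and 16.8 CPM under vehicle and 15.7, 20.98, 20.7, 20.6 and 21.5 CPM under rapamycin, where control rapamycin 1 was the lowest of all 20 libraries. The other core genes read per library overlapped between the MIR groups. Ulk1 stood at 107, 104, 101, 99.1 and 99.6 CPM with vehicle and 107, 97.6, 95.2, 104 and 108 CPM with rapamycin, with a log2 fold change of 0.00 ± 0.09 (SE). Wipi2 stood at 115, 119, 112, 118 and 123 CPM with vehicle and 122, 132, 119.8, 134 and 123 CPM with rapamycin, a log2 fold change of 0.10 ± 0.06 (SE). For Atg13 the values were 87.1, 98.8, 97.7, 94.7 and 101 CPM with vehicle and 103, 98.3, 106, 111 and 101 CPM with rapamycin, a log2 fold change of 0.11 ± 0.06 (SE). MIR rapamycin 2 and 4 held the highest values of Wipi2 and MIR rapamycin 4 that of Atg13.

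No gene of the TFEB family or the GABARAP branch passed in MIR offspring. Tfeb stood at 8.97, 6.14, 5.62, 7.36 and 5.34 CPM with vehicle and 7.17, 5.68, 6.49, 6.02 and 5.27 CPM with rapamycin, a log2 fold change of -0.13 ± 0.19 (SE). Tfe3 stood at 39.1, 41.8, 38.3, 36.7 and 38.9 CPM with vehicle and 40.2, 38.8, 40.9, 41.7 and 37.5 CPM with rapamycin, a log2 fold change of 0.03 ± 0.09 (SE). Tfe3 ran from 36.7 to 41.8 CPM over these 10 libraries. Mitf stood at 10.8, 6.49, 9.66, 10.9 and 10.8 CPM with vehicle and 6.68, 8.72, 9.90, 12.3 and 10.7 CPM with rapamycin, a log2 fold change of -0.01 ± 0.18 (SE). Gabarap stood at 92.4, 74.6, 80.5, 79.0 and 88.2 CPM with vehicle and 77.2, 81.4, 81.7, 71.6 and 77.7 CPM with rapamycin, a log2 fold change of -0.09 ± 0.09 (SE). The lowest of these was MIR rapamycin 4. Gabarapl1 stood at 555, 551, 536, 545 and 603 CPM with vehicle and 573, 570.0, 583, 593 and 569 CPM with rapamycin, a log2 fold change of 0.05 ± 0.10 (SE). Gabarapl2 stood at 37.0, 41.2, 37.6, 43.3 and 44.3 CPM with vehicle and 42.2, 42.4, 39.9, 46.9 and 44.3 CPM with rapamycin, a log2 fold change of 0.08 ± 0.15 (SE). The 95% interval of the difference ran from -0.16 to 0.26 for Gabarapl1 and -0.24 to 0.40 for Gabarapl2.

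Whether the response to rapamycin differed between MIR and control offspring was tested as an interaction, the log2 fold change in MIR minus that in control offspring. None of the 45 genes passed in edgeR, where 0% of all genes were called. Unadjusted p was under 0.05 for 3 of the 45, Becn1, Map1lc3a and Atp6v0d1, all with a lower log2 fold change in MIR offspring, against 6.58% of all genes in that direction and 6.13% in the other. Becn1 differed by -0.25 ± 0.09 (SE, edgeR adjusted p = 0.332), Map1lc3a by -0.46 ± 0.16 (SE, edgeR adjusted p = 0.332) and Atp6v0d1 by -0.28 ± 0.12 (SE, edgeR adjusted p = 0.364). These 3 values, when control vehicle 1, 2 and 3 were left out, stood at -0.18, -0.38 and -0.20 (edgeR adjusted p from 0.664 to 0.716). In DESeq2, Becn1 alone passed, at -0.26 with an adjusted p of 0.0497, while 25 of the 45 genes received no adjusted p there. The unadjusted p was under 0.05 for 4 of the 45 in DESeq2, 3 in edgeR's likelihood ratio test and 4 in limma voom, all in the same direction. By the study's criterion these tools called 63, 11 and 0 of all genes. Their shares of all genes at an unadjusted p are not given here, so the counts by tool have no like background. The 45 genes had a median of 0.00 in this contrast and all genes one of 0.04, and the intervals of 18 of the 45 genes reached beyond ±0.5, so that for these a difference of that size lies within the interval.

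Averaged over control and MIR offspring, the response to rapamycin passed the adjusted threshold for Map1lc3b alone of the 45 genes, as higher, against 0.884% of all genes called as higher and 2.48% called in all. None of the 45 met the study's criterion in edgeR, which 1.42% of all genes did. Its log2 fold change was 0.19 ± 0.05 (SE, edgeR adjusted p = 0.0426), which is 13.9% higher. Map1lc3b passed in 8 of the 20 fits that left out a library, at 0.17 to 0.20 over all 20, and lost the call without any of control vehicle 1, 2 and 5, of control rapamycin 4 and 5, of MIR vehicle 1, 3 and 4, and of MIR rapamycin 1 to 4. None of the 45 passed without control vehicle 1, 2 and 3 together (edgeR). Wipi2 (0.15 ± 0.04, SE), Atg13 (0.16 ± 0.05) and Ulk2 (0.20 ± 0.06) followed, at edgeR adjusted p of 0.0638, 0.0686 and 0.0765. Without adjustment, 12 of the 45 were higher and 3 lower at p under 0.05, against 7.76% and 11.3% of all genes, the latter being Hexa (-0.15 ± 0.07, SE), Npc1 (-0.20 ± 0.09) and Tfeb (-0.28 ± 0.13). The average rests on the same control libraries as the comparison in control offspring.

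MIR offspring were then compared with control offspring under vehicle, which asks whether the maternal inflammatory response left a mark on these transcripts in the cortex of the offspring. None of the 45 genes passed in edgeR, by either rule, beside 0.0982% of all genes, which is 17 genes. Without adjustment, 4 of the 45 genes were higher in MIR offspring, Becn1, Hexa, Grn and Neu1, and 2 lower, Ctsf and Atg14, against 7.40% and 8.92% of all genes. These counts without control vehicle 1, 2 and 3 were 2 higher and 0 lower of the 45, against 4.34% and 2.55% of all genes tested in that fit, and none passed (edgeR). The counts with all 20 libraries were 4 and 2 in DESeq2, 3 and 1 in edgeR's likelihood ratio test and 7 and 3 in limma voom. None of these tools called any of the 45, while by the study's criterion they called 391, 419 and 23 of all genes. Shares of all genes at an unadjusted p under 0.05 in these tools are not given here, so the counts by tool have no like background. This comparison uses the same control vehicle libraries as the first.

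Ctsf, a lysosomal cysteine protease, had the smallest p. It stood at 51.4, 70.4, 49.0, 44.8 and 43.3 CPM in control vehicle 1 to 5 and 38.6, 40.2, 41.4, 42.7 and 43.8 CPM in MIR vehicle 1 to 5. Control vehicle 2 was the highest of all 20 libraries, while control vehicle 5 lay within the MIR range. Ctsf differed by -0.32 ± 0.11 on the log2 scale (SE, edgeR adjusted p = 0.143), and without control vehicle 1, 2 and 3 it was -0.09 (edgeR adjusted p = 0.906). Under rapamycin, Ctsf stood at 55.0, 46.6, 43.6, 44.2 and 45.03 CPM in control and 47.2, 41.6, 45.8, 45.2 and 48.2 CPM in MIR offspring, and control rapamycin 1 was the highest of these 10.

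Hexa encodes a subunit of the enzyme that digests gangliosides, the lipid stored in Tay-Sachs disease. In control vehicle 1 to 5 it stood at 43.9, 33.8, 37.8, 35.7 and 42.6 CPM and in MIR vehicle 1 to 5 at 54.4, 38.6, 47.4, 40.6 and 47.6 CPM. The highest values were those of MIR vehicle 1, 3 and 5, the groups overlapped, and the log2 fold change of 0.24 ± 0.09 (SE) did not pass (edgeR adjusted p = 0.204). It was 0.22 without control vehicle 1, 2 and 3 (edgeR adjusted p = 0.769). Under rapamycin, Hexa stood at 36.4, 33.9, 33.4, 35.2 and 37.9 CPM in control and 40.9, 42.5, 40.9, 36.7 and 41.3 CPM in MIR offspring, a log2 fold change of 0.19 ± 0.09 (SE, edgeR adjusted p = 0.490) in which control rapamycin 1 to 4 lay below every MIR rapamycin library.

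Grn, whose protein progranulin is released by microglia and works in the lysosome, averaged 44.1 ± 7.18 CPM in control and 55.9 ± 12.0 CPM in MIR offspring (SD, n = 5 each), a log2 fold change of 0.34 ± 0.15 (SE, edgeR adjusted p = 0.253). It was 0.50 without control vehicle 1, 2 and 3 (edgeR adjusted p = 0.592). The sialidase Neu1 differed by 0.20 ± 0.09 (SE) and Atg14, which directs the Beclin 1 complex to autophagosomes, by -0.19 ± 0.09, and without control vehicle 1, 2 and 3 the values were 0.23 for Neu1 and -0.07 for Atg14 (edgeR adjusted p = 0.752 and 0.947). Becn1 was 0.16 ± 0.06 higher on the log2 scale (SE, edgeR adjusted p = 0.201) with all libraries and 0.09 without those 3 (edgeR adjusted p = 0.872). For Atp6v0d1, every MIR vehicle library lay above every control vehicle library, which held for 1.61% of all genes tested, at a log2 fold change of 0.15 ± 0.08 (SE, edgeR adjusted p = 0.392) that did not pass. Without those 3 libraries Atp6v0d1 stood at 0.08 (edgeR adjusted p = 0.931). In Tfeb, Tfe3 and Mitf the differences were -0.26 ± 0.19, 0.14 ± 0.09 and -0.22 ± 0.18 (SE), all short of the threshold. Without those 3 libraries they were 0.13, 0.12 and -0.08, so that the sign of Tfeb turned, with none past the threshold (edgeR adjusted p of 0.948, 0.901 and 0.982).

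Markers of several cell types stood mostly to one side in the same comparison, with none of those named here past the threshold (edgeR). Of 15 microglia markers, all of them tested, 14 were positive in MIR offspring under vehicle, with a median log2 fold change of 0.47. Of these microglia markers, 5 had an unadjusted p under 0.05 as higher (edgeR). Their summed level ran from 342 to 574 CPM in control vehicle, 319 to 433 in control rapamycin, 417 to 730 in MIR vehicle and 402 to 583 in MIR rapamycin, with none of the markers at 0 over all libraries. All 10 endothelial markers were positive, with a median of 0.45 and 8 at an unadjusted p under 0.05, and their summed level ran from 275 to 354 CPM in control vehicle and 332 to 439 CPM in MIR vehicle. All 10 oligodendrocyte markers were negative, with a median of -0.46 and 3 at an unadjusted p under 0.05, and their summed level ran from 2936 to 5973 CPM in MIR vehicle. Cortical excitatory neuron markers were positive in 8 of 9, with a median of 0.47, and astrocyte markers negative in 6 of 8, with a median of -0.20. The part of microglia or of any other cell type in the levels of Grn, Hexa and other lysosomal genes was not tested.

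Under rapamycin, MIR and control offspring differed in none of the 45 genes at the adjusted threshold in edgeR, where 0% of all genes were called. Unadjusted p was under 0.05 for Hexa as higher and for Map1lc3a and Ulk1 as lower in MIR offspring, against 5.75% and 4.33% of all genes. In DESeq2 these counts were 1 and 2, in edgeR's likelihood ratio test 0 and 2 and in limma voom 3 and 3. None of the 45 was called in any, while by the study's criterion these tools called 88, 90 and 119 of all genes. The shares of all genes at an unadjusted p in these tools are not given here, so the counts by tool have no like background. Map1lc3a differed by -0.28 ± 0.11 (SE, edgeR adjusted p = 0.417) and Ulk1 by -0.22 ± 0.09 (SE, edgeR adjusted p = 0.431). For both genes control rapamycin 1 was the highest library, at 153 and 144 CPM.

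**Figure D4:**
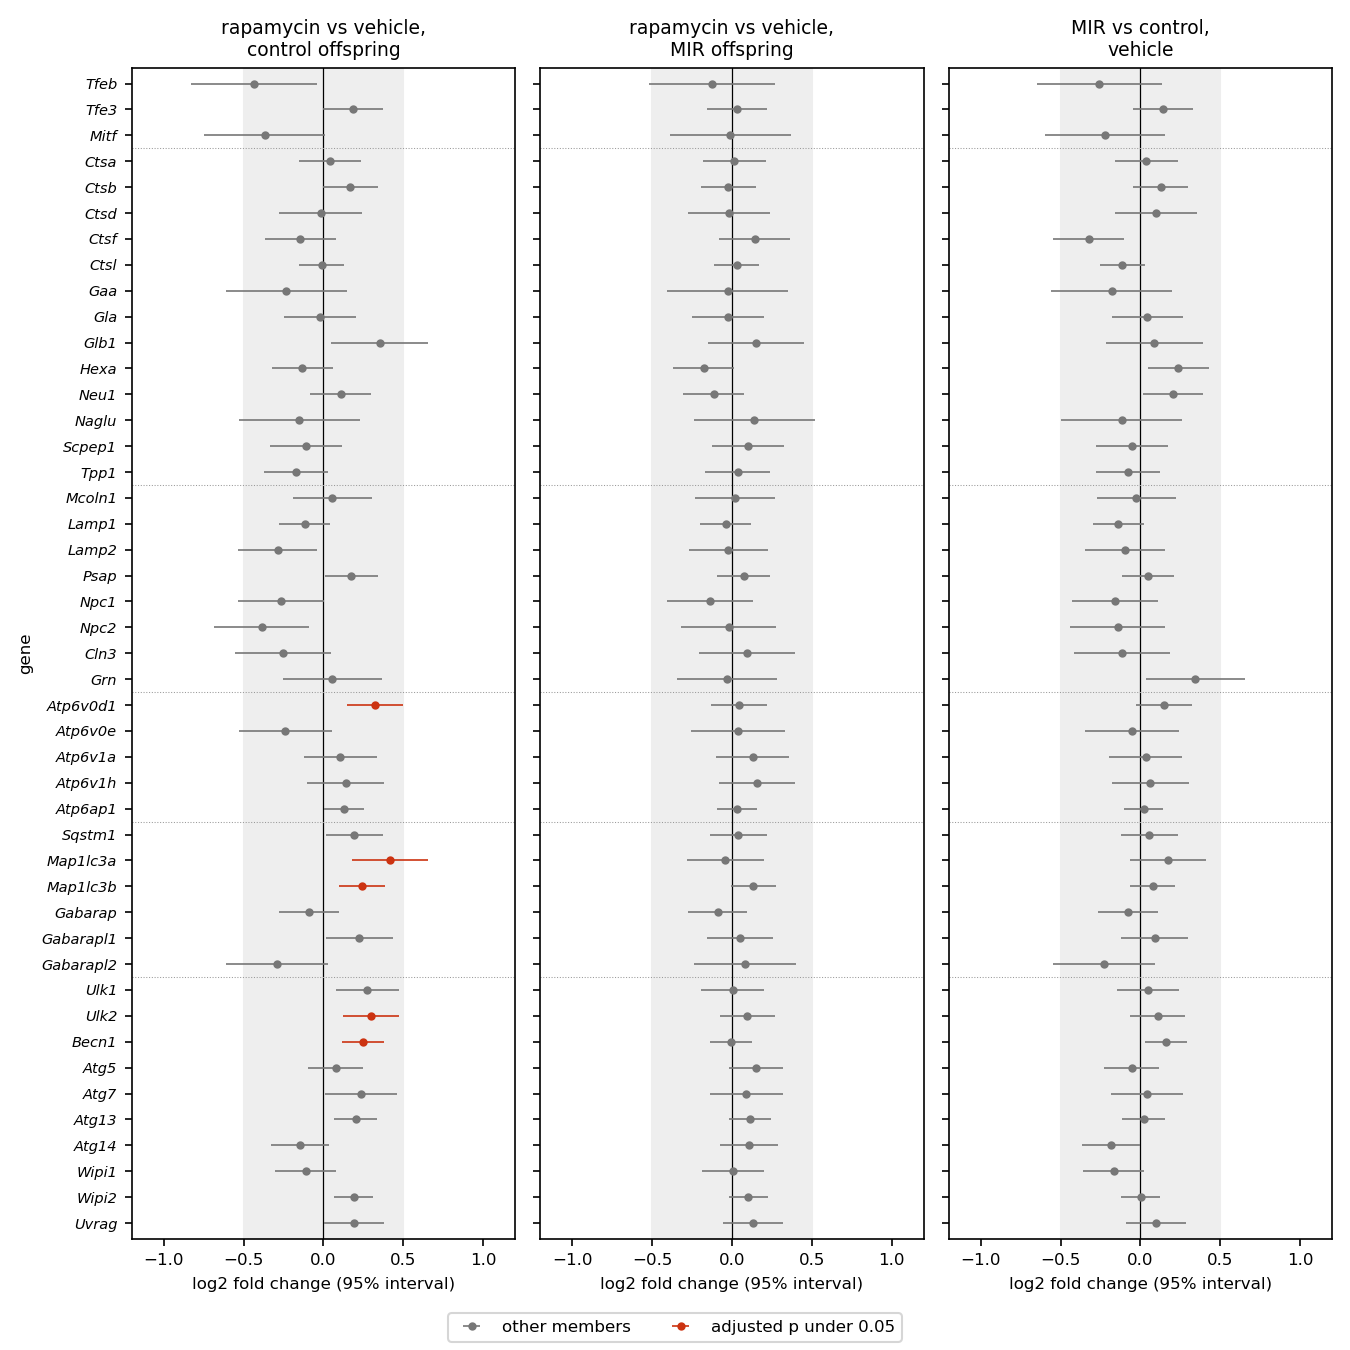
Log2 fold change with its 95% interval for the 45 genes, ordered by role, for rapamycin against vehicle in control offspring, the same in MIR offspring, and MIR against control offspring under vehicle. Red marks an adjusted p under 0.05, which 5 genes reach in the first panel and none in the others, and the grey band spans -0.5 to 0.5.

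Other genes of the pathway were taken from 5 further lists and read in the same fit for rapamycin against vehicle in control offspring. Of 37 other autophagy genes, 2 rose at an adjusted p under 0.05 and none fell, with a median log2 fold change of 0.08: Tollip, a cargo receptor, by 0.27 ± 0.06 (SE, edgeR adjusted p = 0.0215), and Atg101, which stabilises the Ulk complex, by 0.41 ± 0.11 (SE, edgeR adjusted p = 0.0313). Of 34 other lysosomal enzymes tested, Plbd2 rose by 0.41 ± 0.12 (SE, edgeR adjusted p = 0.0476) and Idua, which digests heparan and dermatan sulfate, had a log2 fold change of -0.51 ± 0.14 (SE, edgeR adjusted p = 0.0324), with a median of -0.09. Of 22 other membrane genes tested, Cd63, a tetraspanin of late endosomes, was lower at -0.51 ± 0.12 (SE, edgeR adjusted p = 0.0205), with a median of -0.08. Of 15 other proton pump genes tested, 3 rose and 1 fell, with a median of 0.26 and 10 higher at an unadjusted p under 0.05. The genes that rose were Atp6v1e1 at 0.32 ± 0.08, Atp6v0e2 at 0.39 ± 0.10 (SE, edgeR adjusted p = 0.0213 and 0.0303), and Atp6v0a1 at 0.30 ± 0.08 (SE, edgeR adjusted p = 0.0390), named after its values were seen. The gene that fell was Tcirg1, the pump subunit best known from bone-resorbing osteoclasts, at -0.66 ± 0.17 (SE, edgeR adjusted p = 0.0294). None of 13 genes that control TFEB at the lysosome passed in edgeR, with a median of -0.03 and 2 higher and 3 lower at an unadjusted p under 0.05. Idua, Cd63 and Tcirg1 met the study's criterion. Without control vehicle 1, 2 and 3, none of the genes in these 5 lists was called, and the log2 fold changes were 0.20 for Tollip, 0.25 for Atp6v1e1, -0.27 for Cd63, -0.30 for Idua and -0.62 for Tcirg1.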

How the data were processed

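Poly(A) RNA of 20 mice was read as 50-base paired ends. The authors aligned the reads to mm10 with STAR 2.4.0 and counted them per gene with HTSeq 0.6.1, and the deposited table holds these raw counts without normalization. The sources used here do not give the strand setting of the counting, so a gene that overlaps another, as 17 of the 45 do on the opposite and 9 on the same strand, may hold its neighbour's reads. The methods name RefSeq genes, while the IDs are Ensembl's, and all 45 were found in GENCODE M21 (GRCm38, which is mm10), the source of gene coordinates and exon lengths. The study's methods state that outlying libraries were removed at quality control, and which ones is not given. Groups and numbers come from the sample titles. No pair of libraries within a group was as close as sampling noise allows, the lowest chi-square per degree of freedom being 5.53.

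In R 4.3.3, genes were kept by filterByExpr (minimum count 10, minimum total 15) and scaled by TMM. A quasi-likelihood model of edgeR 4.0.16 with 1 mean per group was fitted to all 20 libraries, with no block, and p-values were adjusted over 17313 genes. The common biological coefficient of variation was 21.9%. Calls needed an adjusted p under 0.05, with or without an absolute log2 fold change over 0.5, which the criterion of the study's methods adds. The study's bulk tables name another, an absolute log2 fold change over 1 at an adjusted p under 0.1, which none of the 45 genes met in any comparison (edgeR). CPM is the count per M of the scaled library, and its log2 was taken with a prior count of 2. With 17.8 to 24.5 M counts per library, counting limits the precision of the rarest genes most.

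Values in every library are given for the TFEB family, Ulk1, the Atg8 family, every gene called by either rule and the 3 genes with the smallest p in each comparison, and of the 5 other pathway lists up to 3 genes with the smallest p. The 45 genes, the lists and these rules were chosen with earlier results of these data known. Alternatives were DESeq2 1.42.0, the likelihood ratio test, limma 3.58.1 voom with library weights, DESeq2's size factors, other filters, only the groups compared, the replicate number as a block, and each library left out. Leaving out control vehicle 1, 2 and 3, and control rapamycin 1 with them, was added after seeing the data.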

Additional observations from a re-analysis of the deposited data

Results flagged for a closer look

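In 20 of 180 pairs of a gene and a group, 1 library lay far from the other 4 on the log2 CPM scale by Dixon's criterion for 5 values (0.71), which chance alone meets in about 1 of 20 groups. Of these, 8 fell on control rapamycin 1, 3 on control vehicle 2 and 2 on control vehicle 1.

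Control rapamycin 1 was the highest of its group for the proteases Ctsa (102 CPM), Ctsf (55.0 CPM) and Ctsl (102 CPM), for the channel Mcoln1 (75.9 CPM), for Cln3 (10.8 CPM) and for the pump subunit Atp6v0d1 (241 CPM). It was the lowest for Lamp2 (43.8 CPM) and Atg5 (15.7 CPM). Control vehicle 2 was the lowest of its group for Sqstm1 (288 CPM), Map1lc3a (69.8 CPM) and Gabarapl1 (358 CPM), and control vehicle 1 the highest for Mitf (14.1 CPM) and Npc1 (123 CPM).

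Single flags fell on MIR libraries. MIR vehicle 2 was the lowest for Mitf (6.49 CPM) and MIR vehicle 4 for Becn1 (96.2 CPM), while MIR vehicle 1 was the highest for the enzyme Naglu (7.17 CPM) and MIR vehicle 5 for Atp6v0d1 (185 CPM). MIR rapamycin 1 was the lowest for Atg7 (20.5 CPM), MIR rapamycin 4 for Hexa (36.7 CPM) and MIR rapamycin 5 for Map1lc3b (103 CPM).

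Leaving out control rapamycin 1 moved the median log2 fold change of the 45 genes for rapamycin in control offspring from 0.056 to -0.035 and left 2 genes past the adjusted threshold, Becn1 and Ulk2. Without control vehicle 2, Becn1 and Ulk1 passed.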

How the results depend on the processing

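The 5 genes called for rapamycin in control offspring and the 3 genes with the smallest p in each comparison kept their direction under every alternative run. The median of the 45 genes, close to 0 throughout, did not: it changed sign under 1 of 30 alternatives for rapamycin in control offspring, 2 of 30 for MIR under vehicle (-0.015 to 0.032 over all), 3 of 30 for MIR under rapamycin (-0.048 to 0.0051) and 7 of 29 in the interaction. Of the 45 genes, 5 passed for rapamycin in control offspring, and 8 did with DESeq2. With limma voom 6 passed, with neither Map1lc3a nor Map1lc3b among them. Without a filter on low counts 2 passed, Atp6v0d1 and Map1lc3a. The count was 0 without control vehicle 1, 2 and 3, 0 without these and control rapamycin 1, and 0 when only the groups compared were fitted. With a library left out the count ran from 2 to 6, and by the study's criterion from 0 to 1, the latter without control vehicle 4. The median log2 fold change there was 0.12 without control vehicle 1, 2 and 3 and ran from -0.035 to 0.083 with a library left out. In the interaction DESeq2 called 1 of the 45, and the median ran from -0.060 to 0.022. For the averaged response, where 1 passed, 6 did with DESeq2, 5 with limma voom, 0 without a filter, 0 without control vehicle 1, 2 and 3, 3 without these and control rapamycin 1, and 0 to 3 with a library left out, and the median was 0.068 without control vehicle 1, 2 and 3. The cause was not tested. Shares of all genes called at an adjusted p alone are not given here for most of these settings, so the counts of the 45 are not set against a like background. Of other values, 641 kept their side and size, 65 moved, 57 fell short of the threshold and 9 newly passed it.

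Counts over all genes by the study's criterion moved more. For MIR under vehicle, 17 became 391 with DESeq2, 419 with the likelihood ratio test, 63 without a filter, 7 with a filter of 1 CPM, and 0 without control vehicle 1, 2 and 3, without these and control rapamycin 1, or with only the groups compared (0 to 226 with a library left out). For rapamycin in control offspring, 906 became 588 with limma voom, 36 and 74 without the libraries named, and 13 with only the groups compared (449 to 1358). For rapamycin in MIR offspring, 3 became 36, 28 and 59 with DESeq2, the likelihood ratio test and limma voom, 22 and 46 without the libraries named, and 31 with only the groups compared (2 to 16). For MIR under rapamycin, 0 became 88, 90 and 119 with these tools, 31 and 51 without the libraries named, and 13 with only the groups compared (0 to 35). The interaction went from 0 to 63 with DESeq2 and 11 with the likelihood ratio test (0 to 1), and the average from 245 to 452, 464 and 399 with these tools (147 to 357).

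With the replicate number as a block, 1 of the 45 genes, Becn1, passed for rapamycin in control offspring and 0 in the averaged response, and over all genes the counts were 0 for MIR under vehicle, 425 for rapamycin in control and 5 in MIR offspring. The 30 same-numbered pairs had correlations of deviations from -0.145 to 0.204, with 4 over 0.1, and 4 of 20 libraries correlated best with their own number. These correlations gave no sign that the numbers pair the samples. They cannot settle whether the numbers mark a litter, day or batch, which the labels do not state.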

Other observations

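Beyond the 45 genes, lysosomal genes of the further lists were read for MIR against control offspring. Under vehicle no gene of the 5 lists passed in edgeR. The smallest p-values were those of Optn, a cargo receptor of autophagy, at a log2 fold change of -0.32 ± 0.09 (SE, edgeR adjusted p = 0.0860), of the protease Ctsh at 0.88 ± 0.27 (SE, edgeR adjusted p = 0.116) and of Laptm5, a lysosomal membrane protein of blood and immune cells, at 0.70 ± 0.21 (SE, edgeR adjusted p = 0.115). DESeq2 called these 3, at adjusted p of 0.0233, 0.0413 and 0.0425, beside 507 genes that it called in all, and limma voom called none. Unadjusted p was under 0.05 in edgeR for 3 higher and 3 lower of 37 autophagy genes, 3 higher and 1 lower of 34 enzymes, 2 and 1 of 22 membrane genes, 2 and 1 of 15 pump genes and 0 and 2 of 13 genes that control TFEB, against 7.40% of all genes higher and 8.92% lower. When control vehicle 1, 2 and 3 were left out, Ctsh stood at 1.14 (edgeR adjusted p = 0.507), Laptm5 at 0.75 (edgeR adjusted p = 0.591) and Optn at -0.19 (edgeR adjusted p = 0.775).

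Under rapamycin, 10 of the 34 other lysosomal enzymes were higher in MIR than in control offspring at an unadjusted p under 0.05 and 0 lower, against 5.75% and 4.33% of all genes, and none passed in edgeR. The lowest p-values were those of the proteases Ctsc, at 1.18 ± 0.27 (SE, edgeR adjusted p = 0.123), and Ctsh, at 1.12 ± 0.27 (SE, edgeR adjusted p = 0.141), and of the mannosidase Man2b1, at 0.57 ± 0.14 (SE, edgeR adjusted p = 0.146). DESeq2 called 3 enzymes as higher and limma voom 2, beside 82 and 156 of all genes called as higher by these tools. The 15 microglia markers had a median log2 fold change of 0.38 in this comparison, and their part in these values was not tested.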
